A study of Homo sapiens with 16 samples.

Results

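The genes described are 10 histone demethylases of the Jumonji C (JmjC) family: KDM3A, KDM3B, KDM4A, KDM4B, KDM4C, KDM5A, KDM5B, KDM6B, KDM7A and KDM2B. They were taken by symbol from the deposited table of 63187 genes. All 10 were found, and all 10 were among the 19530 genes that passed the filter on low counts. They were chosen by measured values of these data: their CPM (counts per 1 M counts, on normalised library sizes) in the 4 groups within each batch, and in batch 2 against the other batches. Their differences in those contrasts are therefore given as a description, without p-values. Whether a gene passed an adjusted p under 0.05 is stated, but is not read as support.

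RNA-seq was performed on SK-N-BE(2), a human neuroblastoma line with amplified MYCN, in 4 groups of 4 libraries. The columns of the deposited table write the line as BE2c, and name the FL libraries WT and the WT libraries CTRL. The groups here follow the sample titles, which the labels tie to these column names. WT cells were labelled wild type. The other groups were transfected with a form of HIF-2α, the oxygen-regulated transcription factor encoded by EPAS1: the full-length protein (FL), or the variants labelled NCTAD and cIDR, which the design text writes as ΔN-CTAD and Δc-IDR. All 4 groups grew at 21% oxygen in 10% serum, and the labels name no hypoxic sample. The labels give the replicate number as a batch, and each batch held 1 library of each group. Neither the vector nor the deleted residues, the harvest time or any mock treatment of the WT cells is given in the sources used here. Transfection as such cannot be told apart from HIF-2α in a comparison with WT.

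JmjC demethylases remove methyl groups from lysines of histone tails. They belong to the dioxygenases that use molecular oxygen, iron and 2-oxoglutarate, the same chemistry as the prolyl hydroxylases that mark HIF-α proteins for degradation. Several of them, KDM3A first among them, are textbook targets of HIF, so the family is known both for sensing oxygen through its activity and for answering hypoxia through its mRNA.

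Library totals ran from 38.6 to 56.1 M estimated counts, and the 10 genes had between 587 and 8218 estimated counts in a library. EPAS1, which checks the labels, had a mean of 18.2 ± 6.89 CPM over the 4 WT libraries (± SD). The mean was 2609 ± 906 CPM for FL, 2851 ± 1330 for NCTAD and 4484 ± 1740 for cIDR. The reads of the transfected sequences and of the cells' own gene were counted together. The 7 adrenergic neuroblastoma markers used (PHOX2A, HAND2, GATA3, ISL1, MYCN, DBH and TH) summed to between 3135 and 3802 TPM (transcripts per 1 M, scaled for length) in a library. The 6 mesenchymal markers summed to between 15.7 and 32.6 TPM, with PRRX1 at 0 in 13 of 16 libraries. Among markers of other cell types, PTPRC was at 0 in 12 and PECAM1 at 0 in 8 of 16 libraries, with at most 3 counts in any other. EPCAM, an epithelial marker, was at 0 in no library, with 8 to 43 counts (0.214 to 0.777 TPM). Batch 2 stood apart from the other batches: 53.9% of tested genes differed there at an adjusted p under 0.05 (edgeR's quasi-likelihood test, Benjamini-Hochberg), so results are given within batches or without batch 2 where it matters.

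The core of the hypoxia response element, the short DNA word bound by HIF, was looked for in the 250 bases before each RefSeq start (GRCh38.p14) as ACGTG or GCGTG on either strand, with overlapping matches counted as 1 place. One of the words was present in at least 1 window of 9 of the 10 genes. It was present in 12 of their 15 windows (80.0%), against 43.2% of 35116 windows of the same length over all genes. ACGTG alone was present in 3 of the 15, close to its share of 18.5% over all windows. The 2 windows of KDM3A overlap by 160 bases and hold the same place, which is counted in both. The GC content of the 15 windows was between 50.4% and 83.6%, in most of them above the median of 58.0% over all windows, and the part of base composition in these shares was not tested. KDM4B and KDM4C had 3 places each, and 5.56% of all windows had 3 or more. The stretches shown are a selection, all from genes higher in batch 2, with the word in capitals. KDM2B, which was lower there, also held GCGTG, among others in a window without annotated exons. The KDM4A window held GCGTG and no annotated exon. KDM7A held ACGTG, and the third place of KDM4C was GCGTG. These are not shown. The KDM4B window and the one shown for KDM6B, which lies before the farther of its 2 RefSeq starts, hold no exon annotated in GENCODE 29. The window before the nearer KDM6B start held neither word. The windows of KDM3A, KDM4C and KDM5B overlap exons of other annotated transcripts (223 and 234 of 250 bases in the 2 windows of KDM3A and all 250 in the other 2 genes), so only the word and 12 bases on each side are shown. A match describes letters and not a bound site, and binding was not measured.
KDM3A, 29 bases at chr2:86441333-86441361, plus strand: ccgggaggctgtGCGTGtcttgtgagagc
KDM4C, 30 bases at chr9:6757898-6757927, plus strand: tgtttgtaagccCACGTGactcaccaagtg
KDM4C, 30 bases at chr9:6757930-6757959, plus strand: ggccccagcggtCACGTGacggcgcgcgcg
KDM5B, 29 bases at chr1:202808469-202808497, minus strand: cggaggcgcacgGCGTGggcttgcggcga
KDM4B, 250 bases at chr19:4968863-4969112, plus strand: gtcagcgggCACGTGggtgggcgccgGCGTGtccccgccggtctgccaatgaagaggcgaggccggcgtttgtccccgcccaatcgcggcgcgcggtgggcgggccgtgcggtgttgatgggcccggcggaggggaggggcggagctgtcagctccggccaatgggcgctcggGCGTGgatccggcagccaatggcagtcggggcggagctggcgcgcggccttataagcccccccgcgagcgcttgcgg
KDM6B, 250 bases at chr17:7833967-7834216, plus strand: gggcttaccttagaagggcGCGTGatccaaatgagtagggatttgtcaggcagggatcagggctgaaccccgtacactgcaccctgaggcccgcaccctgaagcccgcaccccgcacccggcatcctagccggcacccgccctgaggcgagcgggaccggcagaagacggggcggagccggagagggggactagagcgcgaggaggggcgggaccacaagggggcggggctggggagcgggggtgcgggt
In KDM3A the word stood 26 bases before one RefSeq start and 116 before the next. In KDM4C 2 of the 3 places were the palindrome CACGTG, which holds ACGTG on both strands and is also the E-box word of other factors such as MYC proteins. KDM4B held the same palindrome 241 bases before its start. KDM3B had no match in its window, which says only that these letters are not there.

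All 10 genes were detected in every library. Per length, KDM3B was at 27.2 ± 3.37 TPM (SD over 16 libraries), KDM2B at 24.8 ± 2.68, KDM6B at 20.5 ± 6.50 and KDM4B at 18.4 ± 3.83. KDM5A (14.1 ± 2.59), KDM5B (12.6 ± 4.22) and KDM4A (11.9 ± 2.25) followed, then KDM3A (8.08 ± 1.86) and KDM4C (8.07 ± 1.33). KDM7A was lowest at 3.34 ± 0.553 TPM. Neighbours in this order differed by less than the larger of their SDs, except KDM4B and KDM5A, KDM4A and KDM3A, and KDM4C and KDM7A. Much of the spread of KDM6B, KDM5B and KDM4B lay between batch 2 and the other batches, as the plot of levels per length shows. For KDM4C the estimated counts were not whole in 15 of 16 libraries, so part of its reads were shared with other sequences by the estimator.

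**Figure D1:**
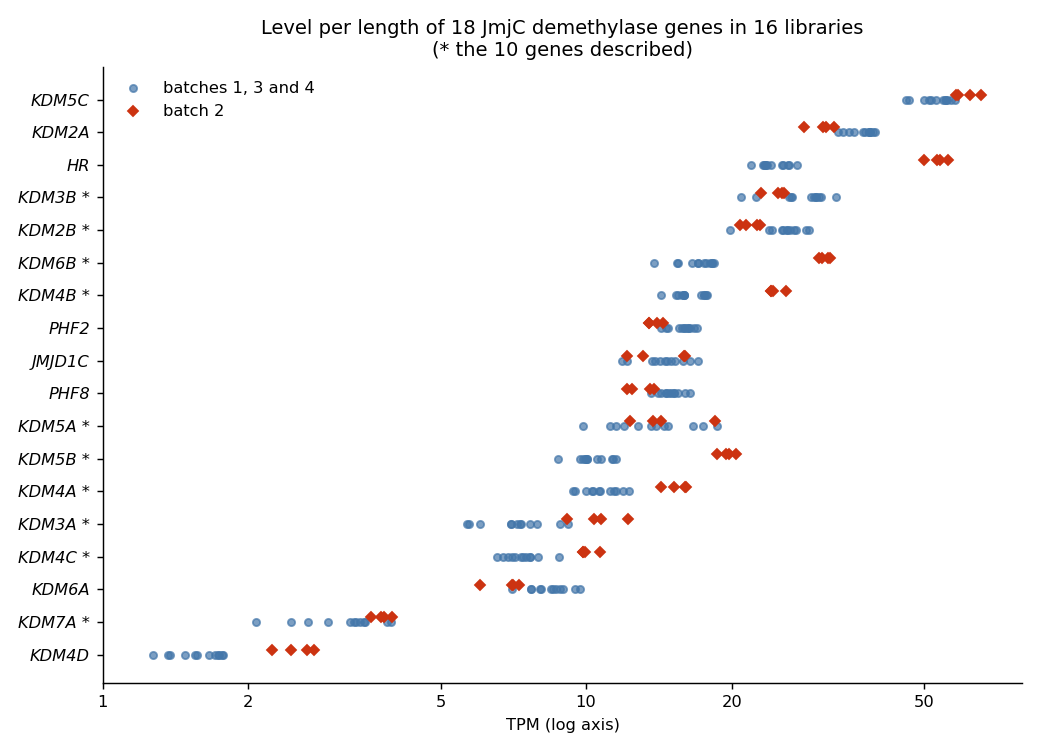
TPM (log axis) of the 10 genes, marked with a star, and of 8 other JmjC histone demethylase genes, 1 point per library, with batch 2 as diamonds and the other 12 libraries as circles. Genes are ordered by mean. The 4 diamonds of KDM4A, KDM4B, KDM4C, KDM5B, KDM6B, HR and KDM4D stand to the right of all circles of their row.

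The first question is whether the forms of HIF-2α changed the mRNA of these enzymes. KDM3A, which removes mono- and dimethyl marks from lysine 9 of histone H3 (H3K9), was the member with the largest group difference, and it was highest in cIDR in 4 of 4 batches. In WT its level was 19.3, 27.6, 22.1 and 22.2 CPM in batches 1 to 4. In FL it was 17.5, 31.2, 23.0 and 22.9 CPM, and in NCTAD 20.2, 32.8, 26.0 and 23.7 CPM. In cIDR it was 23.5, 39.9, 30.6 and 29.8 CPM. The groups overlapped over all libraries, because batch 2 was high and batch 1 low in every group. Within each batch the cIDR library stood above the other 3. Its log2 difference from WT was 0.28, 0.53, 0.47 and 0.42 in batches 1 to 4, a mean of 0.43 ± 0.11 (SD, n = 4 batches). From FL it was 0.42, 0.36, 0.41 and 0.38, a mean of 0.39 ± 0.03, and from NCTAD it was 0.27 ± 0.05. NCTAD stood above WT in 4 of 4 batches by less, 0.16 ± 0.09, and FL above WT in 3 of 4 by 0.03 ± 0.13. The comparisons share groups, so these values are not independent of each other.

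Without batch in the model, none of the 10 genes passed the threshold in the 6 comparisons. The share of all tested genes that did was 0.0102% for FL against WT, 0.0256% for NCTAD against WT, 0.0102% for cIDR against WT and 0% for the 3 comparisons between constructs. Genes with an unadjusted p under 0.05 numbered 222, 277 and 268 for FL, NCTAD and cIDR against WT, and 173, 177 and 119 in the construct pairs NCTAD and FL, cIDR and FL, and cIDR and NCTAD. DESeq2 without batch also called none of the 10. It called 0.0563%, 0.087% and 0.041% of all tested genes for FL, NCTAD and cIDR against WT, and 0.0102%, 0% and 0.0154% in the construct pairs in the same order. With batch as a block, KDM3A alone passed, higher in cIDR than in WT (log2 fold change 0.43 ± 0.05 SE, 1.35-fold) and higher in cIDR than in FL (0.39 ± 0.05, 1.31-fold). The shares of all tested genes called with the block were 0.102%, 0.456% and 0.486% for FL, NCTAD and cIDR against WT, and 0%, 0.0307% and 0.00512% in the construct pairs in the same order. Genes called higher were 0.456% for cIDR against WT and 0.0307% for cIDR and FL. Nothing is read from 1 of 10 members against these shares, since the contrast was used to choose the genes. Against NCTAD the blocked value was 0.27 ± 0.05 and was not called by edgeR, though DESeq2 with the block called it. That fit called 0.799% of all tested genes for cIDR against WT, 0.236% against FL and 0.108% against NCTAD, and KDM3A in each of them. Without the block the corresponding values were 0.44 ± 0.19 against WT and 0.39 ± 0.19 against FL.

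The following fits describe how much these values move with single libraries. They use the contrast that chose KDM3A and are no support for it. With 1 library left out the blocked log2 fold change against WT was 0.39 to 0.47, past the threshold in 8 of 8 fits. Against FL it was 0.37 to 0.42, and it passed without FL replicate 2 and missed the threshold when any 1 of the other 7 libraries of these groups was left out. Without batch 2 as a whole the blocked values were 0.39 against WT and 0.42 against FL and neither was called, where 0.241% and 0.0524% of all tested genes were. On the TPM scale the differences of KDM3A were smaller, 0.32 against WT and 0.25 against FL on log2(TPM + 0.1), and cIDR was still the highest in 4 of 4 batches.

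EPAS1 was also higher in cIDR than in FL in every batch. It was at 4078, 2189, 5852 and 5816 CPM in cIDR and at 1691, 2001, 3580 and 3164 CPM in FL, in batches 1 to 4. In batch 2, where EPAS1 was closest between these groups, the difference of KDM3A was 0.36. The part of the EPAS1 level in the KDM3A result was not tested. The sum of the 9 hypoxia reference genes, known HIF targets such as VEGFA, ran from 284 to 871 TPM for cIDR, 280.5 to 713 for NCTAD, 187 to 763 for FL and 189 to 531 for WT. EGLN3, a prolyl hydroxylase of HIF-α and itself a known HIF target, was the gene of the other enzyme lists that passed with the block by edgeR. It was higher than in WT in cIDR (0.51 ± 0.09, adjusted p = 0.0195) and in NCTAD (0.51 ± 0.09, adjusted p = 0.0196), by edgeR's quasi-likelihood test with Benjamini-Hochberg adjustment over all tested genes. Without the block neither passed (adjusted p = 1 in each by edgeR). Each call was kept in 2 of 8 blocked fits with 1 library left out: without WT replicate 3 in both, without cIDR replicate 4 in the first and without NCTAD replicate 2 in the second.

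**Figure D2:**
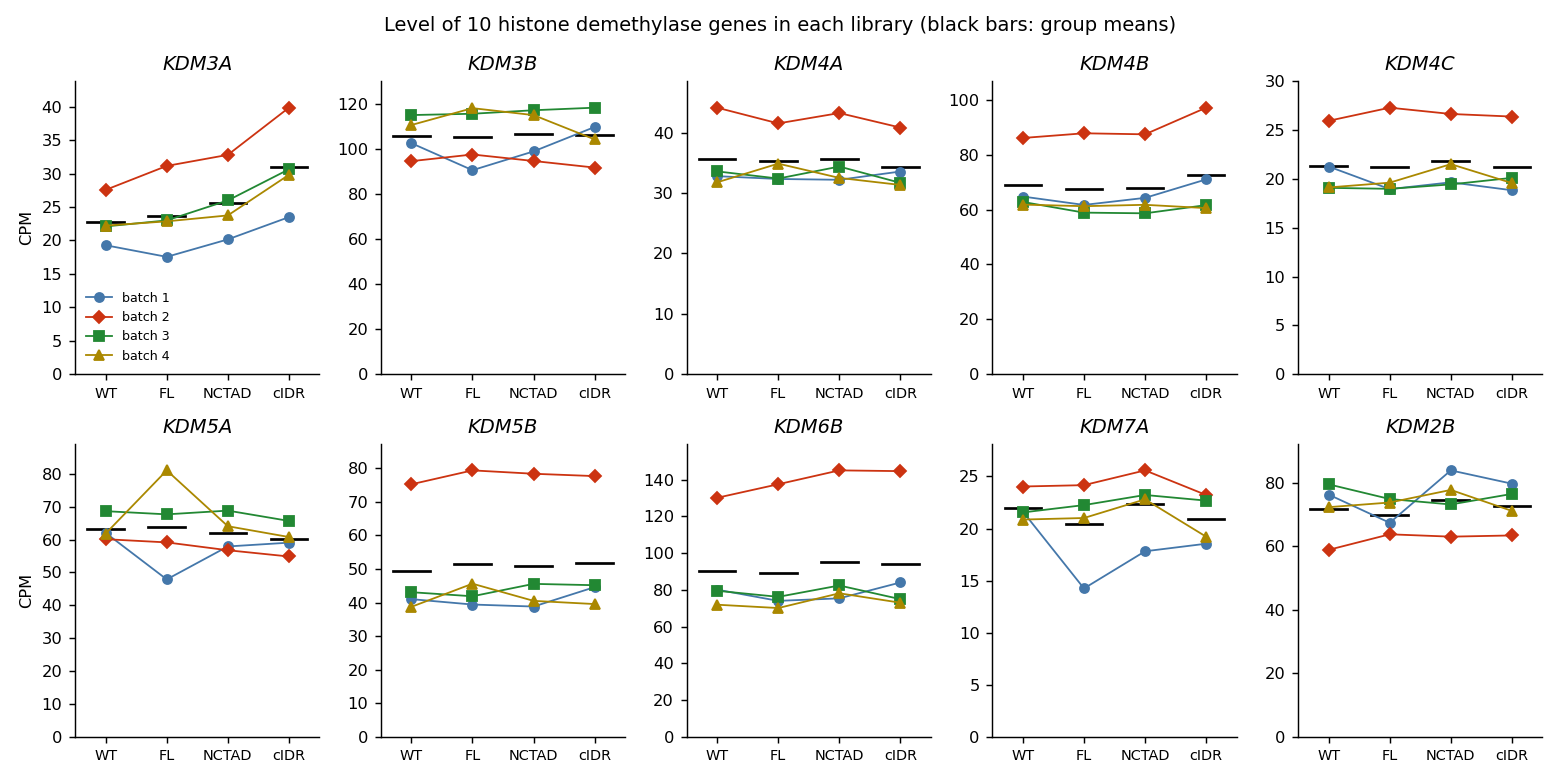
CPM of the 10 genes by group, with 1 line and marker per batch (batch 2 as red diamonds) and a black bar for each group's mean of 4 libraries. KDM3A has its highest point in cIDR along each of the 4 lines, and batch 2 stands above the other batches for KDM4A, KDM4B, KDM4C, KDM5B and KDM6B in every group.

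KDM3B, the closest relative of KDM3A and also an H3K9 demethylase, did not share the pattern. Its group means were 105.7, 105.5, 106.5 and 106 CPM in WT, FL, NCTAD and cIDR, with SDs of 9.04 to 13.5. Its blocked difference between cIDR and FL was 0.01 ± 0.06 log2. The groups overlapped throughout.

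The KDM4 enzymes, which act on trimethylated H3K9 and H3K36, differed little between groups. KDM4A was at 34.4 to 35.6 CPM, KDM4B at 67.4 to 72.6 and KDM4C at 21.2 to 21.8 as group means. The largest blocked difference among them was KDM4B in cIDR against FL, 0.10 ± 0.05, which was not called. cIDR was the highest group for KDM4B in 2 of 4 batches and the lowest in 1.

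For the remaining genes, the 2 H3K4 demethylases KDM5A and KDM5B, the H3K27 demethylase KDM6B, KDM7A, which acts on dimethylated H3K9 and H3K27, and the H3K36 demethylase KDM2B, no group difference was called either. Their group means spanned 60.1 to 63.9 CPM for KDM5A, 49.5 to 51.8 for KDM5B, 89.5 to 95.3 for KDM6B, 20.4 to 22.4 for KDM7A and 70.0 to 74.5 for KDM2B. KDM7A had the widest fitted differences outside KDM3A, -0.13 ± 0.09 for FL against WT and 0.14 ± 0.09 for NCTAD against FL. The FL library of batch 1, at 14.2 CPM, lay below the other 15 libraries of KDM7A. KDM5A was lower in cIDR than in WT in 4 of 4 batches, by a mean log2 difference of -0.07 ± 0.04, and KDM5B higher in 4 of 4 by 0.07 ± 0.04, differences under 0.1 that no fit called. In TPM, cIDR was above WT in 1 of 4 batches for each of the 2 genes, so the direction of KDM5B turned with the scale.

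**Figure D3:**
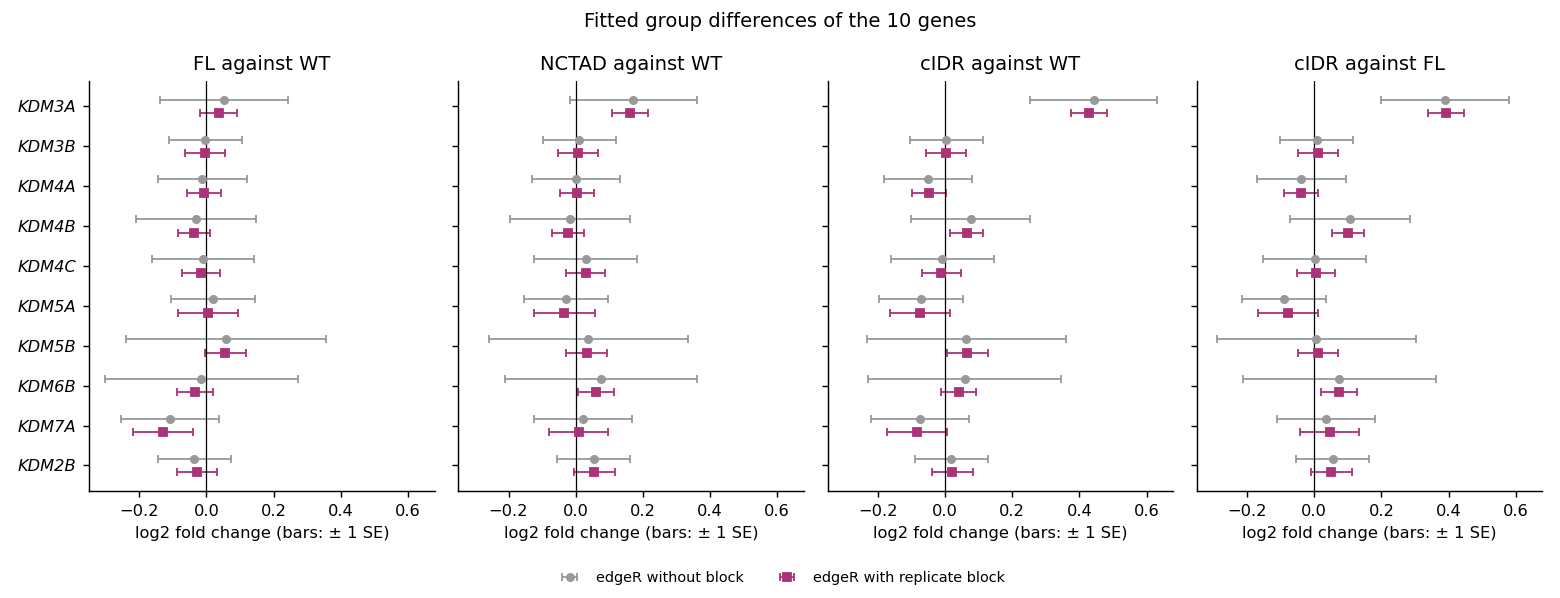
Fitted log2 fold changes of the 10 genes (bars ± 1 SE) in 4 comparisons, without batch in the model (grey circles) and with batch as a block (purple squares). KDM3A lies at 0.43 and 0.39 with the block for cIDR against WT and against FL, and with the block the other 9 genes lie between -0.13 and 0.10 in these panels.

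In all 10 genes, more of the variance of log2 CPM lay between batches than between groups. Batch held 67.2% and group 30.5% of the variance of KDM3A. For the other 9 genes batch held 51.7% (KDM5A) to 97.3% (KDM6B) and group 0.185% (KDM3B) to 8.74% (KDM7A). These shares over 16 libraries are a description.

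The second question is how the genes differ in batch 2, in a fit with group and batch that sets batch 2 against the mean of batches 1, 3 and 4. In this contrast 53.9% of all tested genes were called, 27.7% higher and 26.1% lower, and the median log2 fold change of all tested genes was 0.03. Of the 10 genes, 7 were called higher in batch 2 and 2 lower, with a median of 0.40. Nothing is read from these counts, since the contrast was used to choose the genes. Batch 2 is 1 batch, so its 4 libraries are not independent replicates of what sets it apart, and a standard error here measures the spread between libraries. What differed about that batch is not given in the sources used here.

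KDM5B and KDM6B had the largest differences. KDM5B, which removes methyl marks from H3K4, was at 75.2, 79.4, 78.4 and 77.7 CPM in WT, FL, NCTAD and cIDR of batch 2, and between 38.7 and 45.6 with a median of 41.5 CPM in the other 12 libraries. Batch 2 was 1.85-fold higher (log2 0.89 ± 0.05 SE). KDM6B, which removes them from H3K27, was with 130.2, 137.5, 145.1 and 144.7 CPM in batch 2 and between 70.1 and 84.0 with a median of 75.8 elsewhere, a difference of 1.82-fold (0.86 ± 0.04). For both genes the 4 libraries of batch 2 lay above all others. The difference was alike in the 4 groups, 0.85 to 0.92 log2 for KDM5B and 0.76 to 0.91 for KDM6B, so it was present in WT cells as well as in transfected ones.

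The 3 KDM4 genes were also higher in batch 2 without overlap. KDM4B was at 86.1, 87.8, 87.5 and 97.2 CPM there and between 58.7 and 71.0 elsewhere (1.44-fold, log2 0.52 ± 0.04). KDM4C was at 26.0, 27.3, 26.7 and 26.4 CPM and between 18.8 and 21.5 elsewhere (1.35-fold, 0.43 ± 0.05). KDM4A was at 44.1, 41.5, 43.3 and 40.8 CPM and between 31.3 and 34.9 elsewhere (1.29-fold, 0.37 ± 0.04). The range of the 12 other libraries was narrow for all 3.

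KDM3A was higher in batch 2 by 1.41-fold (0.49 ± 0.04). Its libraries overlapped because the cIDR libraries of batches 3 and 4, at 30.6 and 29.8 CPM, exceeded the WT library of batch 2 at 27.6 CPM. The log2 difference between batch 2 and the others was 0.38 for WT, 0.57 for FL, 0.50 for NCTAD and 0.52 for cIDR. KDM7A was higher by 1.19-fold (0.25 ± 0.07), with batch 2 at 23.2 to 25.6 CPM and the others at 14.2 to 23.2. This call was lost without FL replicate 2 (0.21) and on the log2(TPM + 0.1) scale, where 42.6% of all tested genes were called.

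KDM2B and KDM3B were lower in batch 2. KDM2B, which also brings the variant Polycomb complex PRC1.1 to CpG islands, was at 58.9, 63.8, 63.1 and 63.5 CPM against 67.5 to 84.0 elsewhere, without overlap (0.83-fold, log2 -0.28 ± 0.05). KDM3B was at 94.6, 97.5, 94.7 and 91.7 CPM against 90.6 to 118.3 elsewhere (0.86-fold, -0.21 ± 0.05), and lost its call on the TPM scale. KDM5A was at 54.9 to 60.1 CPM against 47.9 to 81.1 elsewhere (-0.14 ± 0.07) and was not called. It was called without batch 1 (-0.22) and without FL replicate 1 (-0.17), and its sign turned on the TPM scale (0.09). Within families, KDM3A was higher and KDM3B lower, and KDM5B was higher while KDM5A was not called. KDM4A, KDM4B and KDM4C were all higher, and KDM2A, described below, was lower like KDM2B. No pattern is read from these directions, since the contrast was used to choose the genes.

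**Figure D4:**
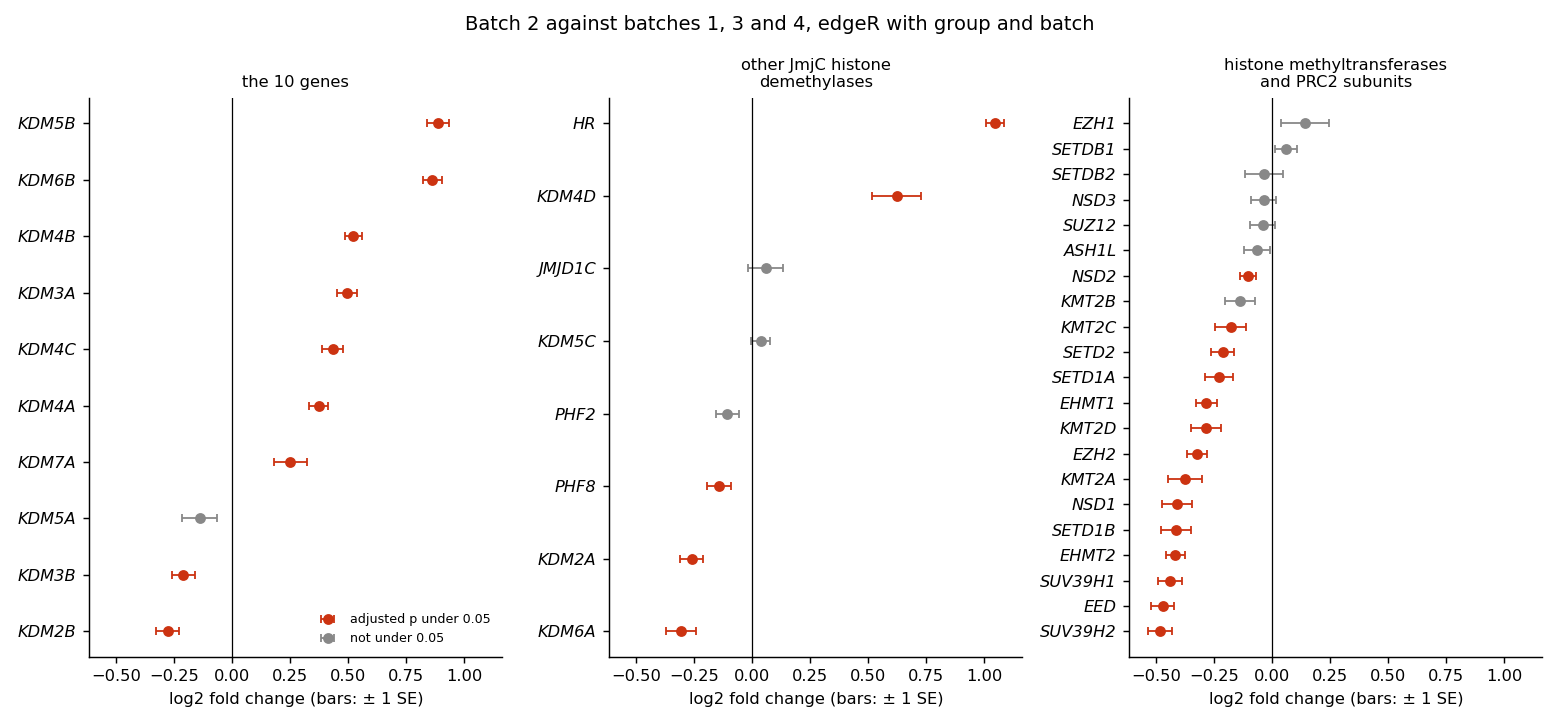
Fitted log2 fold change in batch 2 against batches 1, 3 and 4 (bars ± 1 SE) for the 10 genes (left), 8 other JmjC histone demethylase genes (middle) and 21 genes of histone methyltransferases and PRC2 subunits (right), red where the adjusted p was under 0.05. KDM5B and KDM6B lie near 0.9 and HR at 1.05, and 14 of these 21 are red and below 0.

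Of 9 other JmjC histone demethylases listed 8 were tested, and KDM4E, with at most 1 count in a library, was not. In batch 2, 2 of the 8 were higher and 3 lower, near the shares of 27.7% and 26.1% over all tested genes. HR (hairless), an H3K9 demethylase and corepressor, was higher in batch 2 at 148.8, 150.2, 150.2 and 153.7 CPM against 65.7 to 89.7 elsewhere (log2 1.05 ± 0.04, adjusted p = 3.39e-11, edgeR). KDM4D was higher by 0.62 ± 0.11. KDM6A, the X-linked relative of KDM6B, was lower by -0.31 ± 0.07, KDM2A, the relative of KDM2B, by -0.26 ± 0.05, and PHF8 by -0.14 ± 0.05. PHF8 was called in 6 of 10 settings tried. JMJD1C, KDM5C and PHF2 were not called, though on the TPM scale KDM5C was called higher and PHF2 lower. KDM5C had the highest level of the list at 54.9 ± 5.24 TPM. The median of these 8 genes was -0.04.

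The methyltransferases that place the marks these enzymes remove, listed with the non-catalytic PRC2 subunits EED and SUZ12, fell or were not called in batch 2. Of 21 tested genes edgeR called 14 lower and none higher, with a median log2 fold change of -0.23. Its shares over all tested genes were 26.1% lower and 27.7% higher. DESeq2 called 15 lower and 0 higher, and its shares over all tested genes are not given here. Without EED and SUZ12, edgeR called 13 of 19 lower. The lists were chosen with earlier results of these data known and batch 2 is 1 batch, so these counts are a description. For H3K9, 4 of 6 were lower: SUV39H2 (-0.48 ± 0.05), SUV39H1 (-0.44 ± 0.05), EHMT2 (-0.42 ± 0.04) and EHMT1 (-0.28 ± 0.05). For H3K27, EED (-0.47 ± 0.05) and the catalytic EZH2 (-0.32 ± 0.04) were lower, with 2 of 4 called. For H3K4, 5 of 6 were lower, among them SETD1B (-0.41 ± 0.07) and KMT2A (-0.38 ± 0.07). For H3K36, NSD1 (-0.41 ± 0.07), SETD2 (-0.21 ± 0.05) and NSD2 (-0.10 ± 0.04) were lower of 5. On the TPM scale 13 were lower, with ASH1L now among them, and NSD3 was higher. NSD2 turned to 0.06 there without a call. On log2(TPM + 0.1) 42.6% of all tested genes were called in either direction. NSD2 was called in 5 of 10 settings tried, and its call was also lost without batch 4, with no filter on low counts or one of at least 10 counts in every library, and without WT, NCTAD or cIDR replicate 2. Among the H3K4 genes the call of KMT2C (-0.18) was lost on the TPM scale, with a filter of at least 10 counts in every library, without batch 3, and without any 1 of WT, FL or cIDR replicate 2 and NCTAD or cIDR replicate 3, which left 4 of 6 lower on the TPM scale.

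Other enzymes of the same chemistry and its supply were examined too. For the counts in these lists, edgeR called 27.7% of all tested genes higher and 26.1% lower. On log2(TPM + 0.1) 42.6% of all tested genes were called in either direction. These lists too were chosen with earlier results of these data known, so the counts are a description. Among the HIF prolyl hydroxylases EGLN3 (0.76 ± 0.07, adjusted p = 5.38e-07) and EGLN1 (0.25 ± 0.08, adjusted p = 0.0132) were higher in batch 2 by edgeR, and EGLN2 was not called. The call of EGLN1 was lost without FL replicate 2 and without cIDR replicate 2. IDH1, a cytosolic source of 2-oxoglutarate, was higher by 0.91 ± 0.06 and D2HGDH, which clears D-2-hydroxyglutarate, by 0.57 ± 0.07. Of the 14 genes of 2-oxoglutarate metabolism 8 were lower, all coding for enzymes found in mitochondria, including IDH3A (-0.36 ± 0.04), OGDH (-0.32 ± 0.05), IDH3G (-0.27 ± 0.04) and SDHA (-0.28 ± 0.04). On the TPM scale 6 were lower, since IDH2 and SDHB lost their calls, as both did without batch 1. SDHB also lost its call without WT, FL or cIDR replicate 2. Of the 11 other JmjC proteins 3 were higher and 7 lower, with RIOX1 at -0.75 ± 0.08, JMJD8 at -0.60 ± 0.04 and HIF1AN, the HIF asparaginyl hydroxylase, at 0.21 ± 0.04. On log2(TPM + 0.1) HIF1AN was at 0.44, and on the TPM scale 6 were lower, without JMJD4, whose call was kept in 6 of 10 settings tried. Of 9 nucleic acid dioxygenases 1 was higher, ALKBH5 at 0.25 ± 0.06, and 2 were lower, ALKBH8 at -0.28 ± 0.05 and ALKBH1 at -0.25 ± 0.05. On the log2(TPM + 1) scale ALKBH8 was at -0.08 and not called, which left 1 lower. KDM1B, a demethylase that uses FAD and needs no 2-oxoglutarate, was higher by 0.44 ± 0.07, while its relative KDM1A was not called (-0.03 ± 0.04). Of the 8 subunits of PRC1.1, the partners of KDM2B, BCORL1 was higher (0.81 ± 0.06) and PCGF1 (-0.69 ± 0.07), USP7 (-0.25 ± 0.03) and RYBP (-0.19 ± 0.06) were lower. On the TPM scale USP7 and RYBP lost their calls, so 1 subunit was lower there, and RYBP also lost its call without batch 3 and without cIDR replicate 2.

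Of the 9 hypoxia reference genes 8 were higher in batch 2, with log2 fold changes over the 9 genes from 0.05 to 3.27. Over all tested genes 27.7% were higher and 26.1% lower, and these shares also stand beside the marker counts below. The lists were chosen with earlier results of these data known, so the counts are a description. Their sum was 531 to 871 TPM in batch 2 and 187 to 329.5 TPM in the other 12 libraries. The summed level of the 10 genes was 172 to 184 TPM in batch 2 and 113 to 160 elsewhere. EPAS1 was not called in this contrast (-0.45 ± 0.26, adjusted p = 0.165, edgeR). That fit pools WT, where only the cells' own gene is counted, with the transfected groups. In WT, EPAS1 was highest in batch 2, at 28.1 CPM, with a lowest value of 13.0 in the other batches. In cIDR it was lowest in batch 2, at 2189 CPM, and up to 5852 elsewhere. Each value is 1 library, and this difference between the groups was not tested. The adrenergic markers summed to 3524 to 3657 TPM in batch 2 and 3135 to 3802 elsewhere, and the mesenchymal markers to 21.7 to 25.4 TPM and 15.7 to 32.6. These sums hide members that moved in opposite directions. Of the 7 adrenergic markers 3 were called higher, TH (2.15 ± 0.12), DBH (0.69 ± 0.05) and HAND2 (0.32 ± 0.04), and 2 lower, GATA3 (-0.80 ± 0.05) and ISL1 (-0.28 ± 0.04), while MYCN, the gene amplified in this line, was at -0.02 ± 0.04 and not called. Of 5 tested mesenchymal markers COL1A1 (1.31 ± 0.11) and FN1 (0.25 ± 0.09) were called higher and CD44 (-0.57 ± 0.11) and VIM (-0.18 ± 0.06) lower, and FN1 and VIM lost their calls on the TPM scale. There FN1 turned to -0.15 on log2(TPM + 0.1), and its call was also lost without batch 1 and without batch 4. The call of VIM was lost without batch 3 and without batch 4, and its value ran from -0.05 without batch 4 to -0.41 without batch 1. The part of these marker levels in the difference of the 10 genes was not tested.

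The genes most like each member over the 16 libraries differed with and without the batch means. For KDM3A they were FUT11 (Pearson r = 0.929), DYNC2I1 (0.915) and P4HA1 (0.914), a collagen prolyl hydroxylase subunit. After the batch mean was removed they were SLC25A42 (0.921), P4HA1 (0.907) and CSH2 (0.906), so P4HA1 was in both sets. With batch means kept, KDM6B was most like HR (0.985), KDM4A like KDM5B (0.973) and KDM4B like PTPRF (0.983) and PFKFB3 (0.982). KDM5B was most like CHAC1 (0.982), and KDM3B like KDM6A (0.968). With batch means removed, the closest genes were SLC9A3 (0.861) for KDM6B, DDR2 (0.853) for KDM4A and AK4P3 (0.873) for KDM4B. For KDM5B it was PRAG1 (0.847), and for KDM3B TRIP12 (0.947). The 16 points share 4 batches and 12373 genes were ranked, so these values describe likeness only.

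Among the members, KDM4A, KDM4B, KDM4C, KDM5B and KDM6B moved together over the libraries, with pairwise r from 0.91 (KDM4A and KDM4B) to 0.975 (KDM5B and KDM6B). After batch means were removed the 10 pairs ran from -0.135 (KDM4A and KDM4C) to 0.562 (KDM4A and KDM5B). The pair KDM3B and KDM5A was at 0.84 before and 0.751 after that step. KDM3A was at 0.618 (KDM4A) to 0.746 (KDM5B) with these 5 genes before, and at -0.411 (KDM4A) to 0.563 (KDM4B) after. The 16 libraries are those of the 4 batches throughout.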

How the data were processed

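RNA-seq of 16 SK-N-BE(2) libraries was analysed, 4 in each of 4 groups. The labels' protocols give poly(A)-selected stranded libraries from about 250 ng of RNA with 13 PCR cycles. The authors deposited estimated counts per gene, from salmon per the file headers and table names, with no scaling, and TPM values from the same step. The submitters' processing notes list fastp, STAR, Salmon, featureCounts and GRCh38, with versions not given in the sources used here. Totals ran from 38.6 to 56.1 M counts. 15.5% of the counts were not whole, and all were rounded. filterByExpr left 19530 genes.

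Groups were compared with edgeR 4.0.16 (R 4.3.3), TMM scaling and the quasi-likelihood test over 16 libraries with group as the term. Genes with a Benjamini-Hochberg adjusted p under 0.05 over all tested genes were called. Batch was added as a block. The labels name the replicate number a batch, so the numbers pair the samples. Deviations from group means correlated by 0.308 on average between same-numbered libraries (0.0674 to 0.712, 24 pairs). Batch 2 was set against the mean of the other batches. CPM use TMM-scaled sizes, and log2 CPM a prior count of 2. The SE is the log2 fold change over the square root of F. Alternatives were DESeq2 1.42.0, other scaling and filters, limma 3.58.1 on log2(TPM + 1) and log2(TPM + 0.1), and left-out libraries or batches. The fits were tested on simulated data. Nothing says that libraries of a group came from separate cultures, so p-values measure the spread between these libraries. Fewer cells and less RNA per cell cannot be told apart.

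Members and gene lists were chosen with earlier results of these data known. Named were the 10 genes, up to 4 called genes per list and comparison by smallest adjusted p, the highest gene of a list, and genes from the 3 most alike to each member. All 3 are given for KDM3A, and fewer or none for the other members. PHF2, PHF8, JMJD1C, KDM4E, NSD3, ASH1L, OGDH, SDHA, HIF1AN, SUZ12, KMT2C, JMJD4, IDH2, SDHB, ISL1, MYCN and EPCAM were named after their values were seen. Promoter sequences are from RefSeq (GRCh38.p14), and 10 of 10 genes matched. Whole windows are shown only where no annotated exon of GENCODE 29 overlaps. One marker gene of the lists is not reported here.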

Additional observations from a re-analysis of the deposited data

Results flagged for a closer look

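In 13 of the 40 sets of 4 libraries (10 genes in 4 groups), the library of batch 2 stood far from the other 3 of its group, with a gap to the nearest above the 95% critical value of Dixon's test. Chance flags about 1 in 20 groups, but the genes were chosen on their level in batch 2 and the sets reuse its 4 libraries, so the 13 are a description and are not to be read against that rate. For KDM5B this held in each group, where the WT, FL, NCTAD and cIDR libraries were at 75.2, 79.4, 78.4 and 77.7 CPM. For KDM6B it held in each group too, at 130.2, 137.5, 145.1 and 144.7 CPM in the same order. KDM4A was set apart in WT at 44.1 CPM. KDM4B was set apart in WT at 86.1 and in FL at 87.8 CPM, and KDM4C in FL at 27.3 and in cIDR at 26.4 CPM. All 13 were high, and each was replicate 2. None was a library of KDM3A, KDM3B, KDM5A, KDM7A or KDM2B.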

How the results depend on the processing

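With the replicate block the called members rose from 0 to 1 (KDM3A) in cIDR against WT and in cIDR against FL, by edgeR and by DESeq2, and in cIDR against NCTAD by DESeq2 alone. With the block, the called genes of the other lists rose from 0 to 1 in NCTAD against WT and in cIDR against WT (EGLN3 in both), by edgeR and by DESeq2, and in cIDR against FL by DESeq2 alone (KMT2D). EGLN3 was also called in NCTAD against WT without batch 2, with and without the block (1 gene each). With 1 library left out, the counts of called members and of called listed genes lay between 0 and 1 in these comparisons. In no other setting tried did a member pass between groups. In batch 2 against the other batches 9 members were called, 8 to 10 with 1 library left out and 7 on the TPM scale, without KDM3B and KDM7A. Median-of-ratios scaling moved the median of all genes by at most 0.0125 log2. The cause of these changes was not tested. The block changed no other call of a member. Each member had at least 587 counts in a library, and there were 4 batches. The part of depth and of the number of batches in the calls was not tested.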
